A study of Mus musculus with 34 samples.

Results

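The comparison described here is of 6 libraries labelled Tfh2_4e4 with 5 libraries labelled Tfh2_2e4, chosen by the group name in their titles out of 34 libraries in all. All were made from naive CD4 T cells (C57BL/6 mice) that had been activated in culture for several days with plate-bound CD3 and CD28 antibodies, and RNA was taken after a flow cytometry sort. They were differentiated in conditions that the labels give only as these codes. Both groups carry the code Tfh2 and differ in the number that follows it, and no knockout, transgene or added compound is named for either. What the code abbreviates, what the number counts and how the sort was gated are not stated in the labels, so the groups keep their label names. Tfh2 was also present with the numbers 1e4 (6 libraries) and 6e4 (6), and the codes Tfh5 (6) and TfhA (5) with the number 4e4. All 34 libraries entered one fit so that they share an estimate of the spread. Nothing says that replicates came from separate mice or cultures, so a p-value reflects only how these samples varied, which may be technical.

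When the T cell receptor binds antigen or a plate-bound antibody, calcium and kinase signals switch on early response genes such as those of the EGR and NFAT families, and these in turn raise cytokines, checkpoint receptors and inhibitors that dampen the signal. Activated T cells grow, copy their DNA and divide, and for this they take up glucose and make sterols and new membrane. When oxygen is short, hydroxylases stop marking hypoxia-inducible factor (HIF) for destruction, and HIF raises glucose transporters, glycolytic enzymes and survival genes. Follicular helper T (TFH) cells help B cells through IL-21 and CD40 ligand and carry PD-1, while TH17 cells make IL-17 and regulatory T cells restrain both.

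The libraries held the markers of CD4 T cells, while several defining genes of TFH cells were low. The 12 genes of the CD4 T cell list (the CD3 chains, Cd4, Cd28, Lck, the receptor constant regions and others) summed to 2705, 2865 and 3049 CPM (lowest, median and highest library) in Tfh2_4e4 and 2619, 2729.9 and 3014 CPM in Tfh2_2e4, where CPM stands for counts scaled to a library total of 1000000 after normalization. Bcl6, the master factor of TFH cells, had 21 summed counts in Tfh2_4e4 and 27 in Tfh2_2e4, Cxcr5 lay between 6.69 and 10.6 CPM in Tfh2_4e4 and between 7.38 and 14.2 CPM in Tfh2_2e4, and Ascl2 had 48 summed counts in Tfh2_4e4 and 0 in Tfh2_2e4. Of the marker lists of other cells, 4 of 9 B cell genes (among them Ms4a1 and Pax5), 4 of 6 NK cell genes (among them Ncr1 and Klrb1c), 7 of 15 genes of macrophages, granulocytes and dendritic cells (among them Lyz2 and Adgre1) and 3 of 4 red cell genes had 0 counts in all 11 libraries. Total counts ranged over 6548499 to 9934245 in Tfh2_4e4 and 5453857 to 9003008 in Tfh2_2e4. In each group 1 library stood apart. A set of 10 genes that earlier results of these data showed to be high in TfhA_4e4 (1298 to 1461 CPM in sum) summed to 322 CPM in Tfh2_4e4 replicate 3, against 94.4 to 109 CPM in the other 5 libraries of that group. It summed to 259.5 CPM in Tfh2_2e4 replicate 6, against 94.9 to 115 CPM in the other 4. Each result below was also computed without these 2 libraries and with each single library of Tfh2_4e4 or Tfh2_2e4 left out. The changes this made to the calls of genes described are given with them. For lists with at least 5 tested members the larger changes in counts are given. Smaller changes in the counts of lists also occurred and are not given. The 2 most counted identifiers without a gene symbol (100861531 and 19791) took a share of all counts that was 4.71 percentage points higher in Tfh2_4e4 (exact permutation p = 0.0498, or 0.0996 adjusted over 2 such shares), and 1482 genes were called with both left out.

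Between Tfh2_4e4 and Tfh2_2e4, most tested genes of glucose use and of the response to low oxygen rose and most of those of DNA copying and cell division fell. Genes close to the T cell receptor signal moved in both directions, with 5 of 27 early response factors higher and 5 lower, and 7 of 25 feedback inhibitors lower and none higher. Of 11357 genes tested, 1475 (13.0%) passed an edgeR adjusted p of 0.05. Of these 862 (7.59%) were higher in Tfh2_4e4 and 613 (5.40%) lower. The rise was over 2-fold for 237 genes (2.09%) and the fall for 106 (0.933%). The median log2 fold change over all tested genes was -0.0043. With a mean of at least 5 CPM required, 769 of 1475 called genes were higher and 706 lower. Leaving out the 2 libraries that stood apart gave 1201 called genes (10.5% of 11491), 641 higher (5.58%) and 560 lower (4.87%), and 1061 of them were also called with all libraries. The 4e4 and 2e4 groups are part of a series. With the same test, 597 genes (5.26%) differed between Tfh2_2e4 and Tfh2_1e4 and 168 (1.48%) between Tfh2_6e4 and Tfh2_4e4, and neighbouring comparisons share libraries. In bulk RNA, fewer cells of a type and less RNA per cell cannot be told apart, which holds for every result below.

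**Figure D1:**
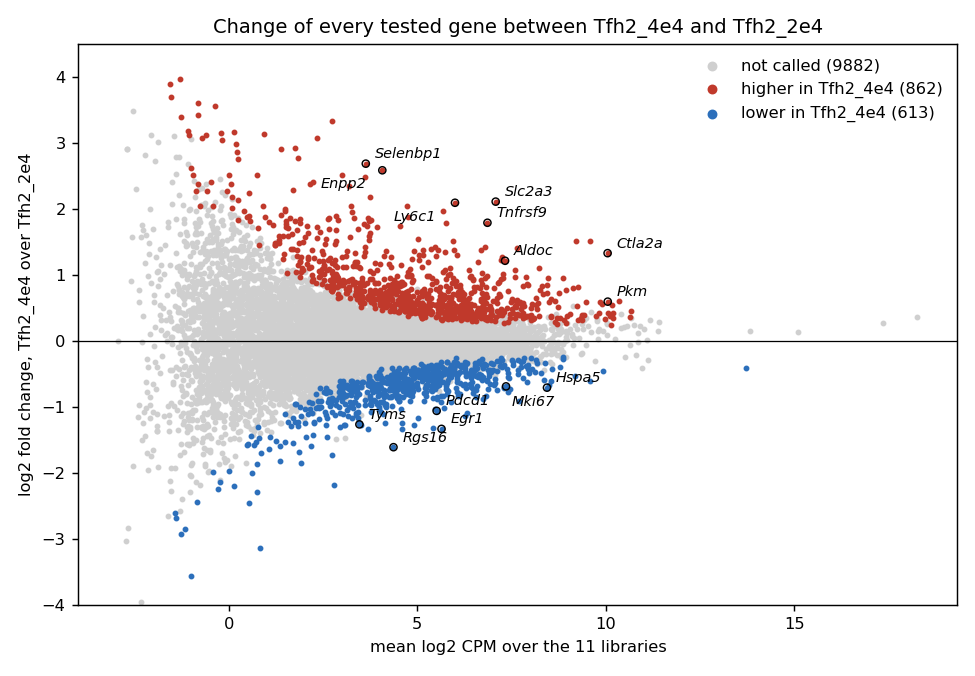
Each point is a gene, with its mean log2 CPM over the 11 libraries on the x axis and its log2 fold change (Tfh2_4e4 over Tfh2_2e4) on the y axis, red where it was called higher (862), blue where called lower (613) and grey where not called. 9 genes lie outside the plotted range. Slc2a3 and Ly6c1 combine a rise of over 2 log2 units with a high level, and Egr1 and Pdcd1 stand at the lower edge of the cloud.

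Enpp2, which encodes the secreted enzyme autotaxin that makes lysophosphatidic acid (chr15:54838901-54952789, GRCm38.p6), had 19.1, 40.1 and 70.8 CPM (lowest, median and highest) in Tfh2_4e4. In the 5 Tfh2_2e4 libraries (replicates 1, 2, 4, 5 and 6, an order kept below) it had 7.02, 3.33, 4.22, 13.8 and 6.95 CPM. The groups did not overlap, and the log2 fold change was 2.59 (SE 0.33, adjusted p = 1.08e-07). Il24, a cytokine gene of the IL-10 family (chr1:130882074-130887411), had 8.82, 21.3 and 29.7 CPM in Tfh2_4e4 and 1.101, 7.44, 2.67, 2.84 and 2.87 CPM in Tfh2_2e4. All Tfh2_4e4 libraries lay above all Tfh2_2e4 libraries, with a log2 fold change of 2.52 (SE 0.39, adjusted p = 7.73e-06), although replicate 2 of Tfh2_2e4 came close to the lowest of them.

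The other 3 of 5 marker genes of this comparison were lower. All 5 were chosen with earlier results of these data known, and 7.04% of all tested genes had no overlap between the groups. Rgs16, which speeds the switching off of G protein signals (chr1:153740353-153745468), had 6.29, 14.2 and 17.3 CPM in Tfh2_4e4 and 37.97, 27.4, 48.7, 38.2 and 46.4 CPM in Tfh2_2e4, with no overlap and a log2 fold change of -1.61 (SE 0.22, adjusted p = 3.75e-07). Egr1, an early response transcription factor, had 26.9, 33.7 and 38.7 CPM in Tfh2_4e4 and 84.1, 80.1, 71.9, 73.2 and 107 CPM in Tfh2_2e4, a log2 fold change of -1.33 (SE 0.13, adjusted p = 3.89e-10). Every Tfh2_4e4 library was below every Tfh2_2e4 library. Pdcd1, the gene of the checkpoint receptor PD-1 (chr1:94038305-94052553), had 22.7, 33.005 and 46.8 CPM in Tfh2_4e4 and 95.1, 83.3, 55.7, 55.8 and 60.6 CPM in Tfh2_2e4, again without overlap, and a log2 fold change of -1.06 (SE 0.17, adjusted p = 1.46e-05). Without the 2 libraries that stood apart these 5 genes had log2 fold changes of 2.72 (Enpp2), 2.52 (Il24), -1.56 (Rgs16), -1.25 (Egr1) and -1.25 (Pdcd1), and all 5 stayed called.

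**Figure D2:**
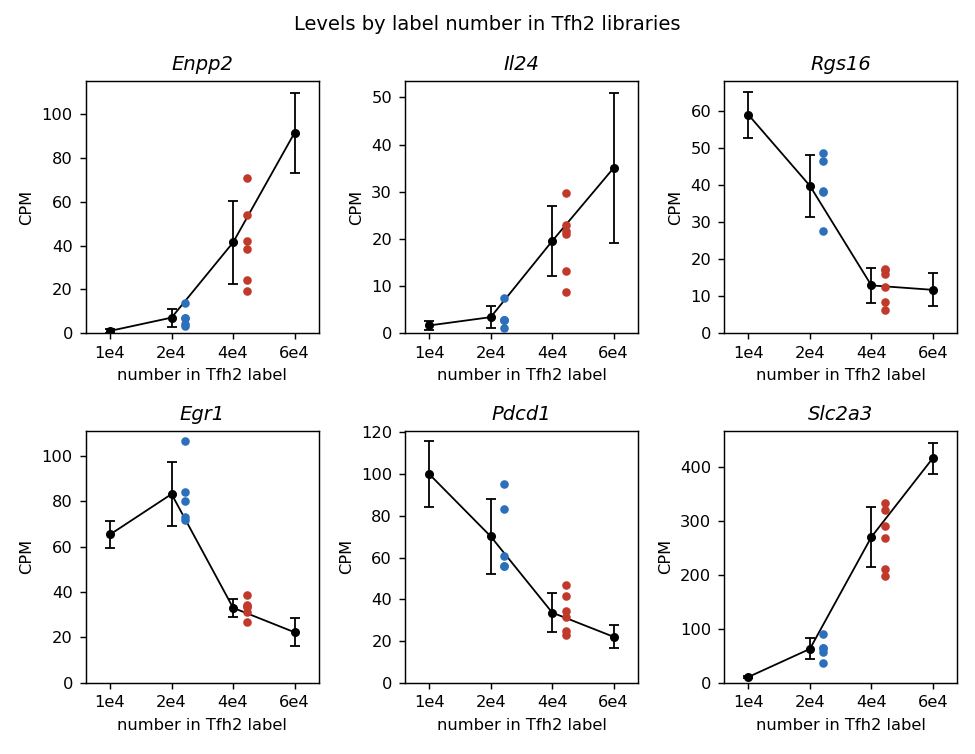
CPM of 6 genes (y axis, from 0) in Tfh2 libraries by the number in the label (x axis, 1e4 to 6e4). Black points and bars are means and SD (n = 6, 5, 6 and 6), and coloured points are single libraries of Tfh2_2e4 (blue) and Tfh2_4e4 (red). No red point shares the range of the blue points in any panel, with Enpp2, Il24 and Slc2a3 higher and Rgs16, Egr1 and Pdcd1 lower at 4e4. The 6 genes were chosen with results of these data known, so their lack of overlap is no separate evidence. Of all tested genes 7.04% had none.

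Genes were ranked by fold change among called genes whose log2 CPM averaged 3 or more and that had all libraries of each group on one side of the other group's mean. The 10 largest rises in this ranking were Selenbp1, Enpp2, Il24, Dpf1, Itga7, Matk, Slc2a3, Ly6c1, Dntt and Lrrc32, with log2 fold changes of 2.69 for Selenbp1 to 2.04 for Lrrc32. Dpf1 encodes a subunit of BAF chromatin remodelling complexes, Itga7 a laminin-binding integrin chain, Matk a kinase that restrains Src family kinases and Dntt the terminal transferase of antigen receptor rearrangement. Dntt had 39.1, 53.2 and 62.998 CPM in Tfh2_4e4 and 6.74, 15.6, 16.2, 18.4 and 7.42 CPM in Tfh2_2e4, a log2 fold change of 2.05 (SE 0.20, adjusted p = 5.98e-10). Lrrc32 encodes GARP, which holds latent TGF-beta on the cell surface, and had 12.3, 18.5 and 25.8 CPM in Tfh2_4e4 and 1.101, 5.77, 4.503, 6.24 and 5.47 CPM in Tfh2_2e4. Ly6c1, which marks activated and memory T cells, has a close paralog (Ly6c2), and how the counting treated reads that fit several places is not given in the sources used here, so its value of 2.09 carries that uncertainty.

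The 10 largest falls under the same rule were Rgs16, Marcks, Egr1, Fen1, Angptl2, Fam111a, Arhgap31, Egr2, Tyms and Marcksl1, from -1.61 for Rgs16 to -1.24 for Marcksl1. Marcks and Marcksl1 encode membrane-bound substrates of protein kinase C that bind actin. Marcks had 14.4, 15.8 and 18.7 CPM in Tfh2_4e4 and 51.5, 28.3, 46.7, 29.5 and 48.6 CPM in Tfh2_2e4. Angptl2, a secreted protein of the angiopoietin-like family, had 21.1, 28.01 and 38.8 CPM in Tfh2_4e4 and 99.6, 68.97, 62.1, 60.5 and 66.8 CPM in Tfh2_2e4, a log2 fold change of -1.32 (SE 0.15, adjusted p = 8.59e-09). Fen1, Tyms and Fam111a act in DNA replication, as a flap endonuclease, as the enzyme that makes thymidylate and as a protease at the replication fork. Arhgap31 encodes a GTPase-activating protein, and its libraries overlapped between the groups.

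Most genes of the response to low oxygen rose. Of 29 tested members of a list of HIF-inducible genes, 19 were higher in Tfh2_4e4 and none lower, against 7.59% and 5.40% of all genes, and the median log2 fold change of the list was 0.73 against -0.0043 over all genes. The libraries of 17 members did not overlap, and neither did those of 7.04% of all tested genes (490 higher in Tfh2_4e4, or 4.31%, and 310 lower, or 2.73%). Slc2a3, the glucose transporter GLUT3 (chr6:122727809-122802363), had 198, 279 and 333 CPM in Tfh2_4e4 and 36.7, 65.2, 64.4, 90.8 and 56.6 CPM in Tfh2_2e4. Its log2 fold change was 2.11 (SE 0.15, adjusted p = 8.05e-14), and the lowest Tfh2_4e4 library was above the highest Tfh2_2e4 library. Adm, the vasodilator peptide adrenomedullin, had 9.62, 13.7 and 24.2 CPM in Tfh2_4e4 and 0.688, 1.15, 0.704, 3.97 and 2.13 CPM in Tfh2_2e4, a log2 fold change of 3.07 (SE 0.39, adjusted p = 1.63e-07). Ndrg1, a stress-response gene, had 145, 177 and 208 CPM in Tfh2_4e4 and 47.9, 70.1, 82.7, 86.7 and 46.3 CPM in Tfh2_2e4 (log2 fold change 1.43).

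Several HIF-inducible genes act on the pathway itself or on energy use. Egln3, one of the prolyl hydroxylases that mark HIF for destruction, rose by 0.72 on the log2 scale. Vegfa, the vascular growth factor, rose by 1.12. Bnip3 and Bnip3l, receptors for the removal of mitochondria by autophagy, rose by 0.84 and 0.81, and Pdk1, the kinase that keeps pyruvate out of the mitochondria, rose by 0.74. Hilpda, which blocks fat breakdown on lipid droplets, had 195, 218 and 235 CPM in Tfh2_4e4 and 76.1, 106, 86.5, 112 and 87.8 CPM in Tfh2_2e4. The members that did not pass included Plin2 (a lipid droplet coat, log2 fold change -0.12) and Higd1a (-0.024). Slc2a1, the transporter GLUT1, did not pass either. It averaged 0.741 and 0.639 CPM in Tfh2_4e4 and Tfh2_2e4, and at so few counts a difference can go undetected. Between Tfh2_2e4 and Tfh2_1e4, 23 members were already higher in Tfh2_2e4 (against 4.06% of all genes), and 1 was higher in Tfh2_6e4 than in Tfh2_4e4 (against 0.616%).

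The sequences before the starts of 2 called members are shown because HIF binds DNA at a short core. The core was searched as ACGTGC or GCGTGC on either strand within the 250 bases before a gene's start in the RefSeq promoter table (GRCm38.p6). It was present in 17 of 26 listed genes with an entry, in 12 of the 16 that rose and have one, in 26.1% of the tested genes with an entry and in 15.3% of all genes in the table. A match is a description of the letters and not of binding. The shown genes are the called members with the largest changes whose window holds the core, which stands in capitals: Adm at chr7:110627407-110627656 and Selenbp1 (a selenium-binding oxidase) at chr3:94932833-94933082, both on the + strand.
Adm: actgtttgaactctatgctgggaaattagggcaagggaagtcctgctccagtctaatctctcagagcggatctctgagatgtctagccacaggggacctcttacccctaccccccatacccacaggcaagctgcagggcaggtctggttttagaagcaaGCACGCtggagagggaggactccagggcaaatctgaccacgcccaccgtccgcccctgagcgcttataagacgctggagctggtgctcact
Selenbp1: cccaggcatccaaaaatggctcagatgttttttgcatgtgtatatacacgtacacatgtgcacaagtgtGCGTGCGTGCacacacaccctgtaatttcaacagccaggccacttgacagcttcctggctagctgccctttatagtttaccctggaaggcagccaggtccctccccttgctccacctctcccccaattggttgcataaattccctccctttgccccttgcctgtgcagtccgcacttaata
In Adm the core begins at position -91 relative to the start and is read on the strand opposite to the gene. In Selenbp1, 2 overlapping matches run together.

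Glycolysis moved the same way. Of 24 tested glycolysis and glycogen genes, 16 were higher in Tfh2_4e4 and none lower, against 7.59% and 5.40% of all tested genes. Their median log2 fold change was 0.55. The libraries of 11 did not overlap, against 7.04% of all tested genes. Hexokinase genes Hk2 and Hk1, which trap glucose, rose by 0.59 and 0.50. Pkm, the pyruvate kinase of proliferating cells, had 1094, 1296 and 1435 CPM in Tfh2_4e4 and 713, 914, 809.9, 909 and 913 CPM in Tfh2_2e4, a log2 fold change of 0.59 (SE 0.10, adjusted p = 2.35e-05). Aldoc, an aldolase, had 219, 237 and 268 CPM in Tfh2_4e4 and 88.3, 119, 97.1, 141 and 70.4 CPM in Tfh2_2e4, a log2 fold change of 1.21 (SE 0.15, adjusted p = 9.27e-08). Gbe1, Gys1 and Pgm1, which build glycogen, rose by 1.87, 0.98 and 0.92. The lactate exporter gene Slc16a3 rose by 0.58 with overlapping libraries.

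Not every step of glycolysis passed. Ldha, which makes lactate, had 793, 948 and 1219 CPM in Tfh2_4e4 and 965, 975, 844, 805 and 708 CPM in Tfh2_2e4 and a log2 fold change of 0.18 (SE 0.12, adjusted p = 0.404), and Tpi1 had one of 0.10 (SE 0.13, adjusted p = 0.698). Gapdh (4.08 CPM in Tfh2_4e4 and 2.87 CPM in Tfh2_2e4 on average), Eno1 (13.8 and 16.9) and Pgk1 (9.94 and 8.73) were counted at levels far below those of their neighbours in the pathway. These genes have near-identical copies in the genome, so their values, and the rise of Pgam1 (0.91), are uncertain. The HIF core above was found in 13 of the 25 listed glycolysis genes and in 6 of the 16 that rose, against 26.1% of the tested genes with an entry.

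Most genes of DNA copying fell. Of 28 tested replication genes, 21 were lower in Tfh2_4e4 and none higher, against 5.40% and 7.59% of all tested genes. Their median log2 fold change was -0.71. The libraries of 13 did not overlap, against 7.04% of all tested genes. Tyms, which makes the thymidine nucleotide, had 4.67, 7.87 and 11.1 CPM in Tfh2_4e4 and 19.7, 19.998, 16.04, 18.2 and 16.8 CPM in Tfh2_2e4, a log2 fold change of -1.27 (SE 0.23, adjusted p = 7.69e-05). Mcm5, a subunit of the replicative helicase, had 30.2, 42.2 and 57.6 CPM in Tfh2_4e4 and 100.4, 101, 74.3, 70.8 and 80.6 CPM in Tfh2_2e4, a log2 fold change of -0.93 (SE 0.16, adjusted p = 3.83e-05). Other helicase subunits gave -0.76 (Mcm4), -0.48 (Mcm6) and -0.44 (Mcm7), and Mcm3 (-0.27, adjusted p = 0.0783) did not pass. Mcm3 passed without Tfh2_4e4 replicate 1 (-0.35, adjusted p 0.0246) or Tfh2_2e4 replicate 6 (-0.33, adjusted p 0.045). Mcm4 did not pass with any 1 of Tfh2_2e4 replicates 4 and 6 left out (-0.58 to -0.65, adjusted p 0.0548 to 0.0896), nor without both libraries that stood apart (-0.47, adjusted p 0.194). Pcna, the sliding clamp, fell by 0.70 on the log2 scale and Lig1, which joins the lagging-strand fragments, by 0.73. Cdc6 and Cdt1, which load the helicase at origins, fell by 0.98 and 0.59. Rrm2 and Rrm1, the subunits of ribonucleotide reductase, fell by 1.003 and 0.55.

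E2F factors drive many of these genes at the start of S phase. An E2F site (TTTCCCGC, TTTCGCGC, TTTGCCGC or TTTGGCGC, either strand) was present before the start of 6 of 24 replication genes with an entry, of 5 of the 18 that fell, and of 4.27% of the tested genes. Cdc6 is shown as the called member with the largest change whose window holds one (chr11:98907901-98908150, + strand, GRCm38.p6, RefSeq), with the site in capitals from position -138.
Cdc6: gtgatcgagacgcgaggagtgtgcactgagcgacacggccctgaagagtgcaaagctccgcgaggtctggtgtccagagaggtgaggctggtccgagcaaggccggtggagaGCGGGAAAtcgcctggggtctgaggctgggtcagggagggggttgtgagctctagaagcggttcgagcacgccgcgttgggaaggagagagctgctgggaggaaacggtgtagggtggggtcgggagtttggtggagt

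Most mitosis genes fell as well. Of 29 tested, 23 were lower in Tfh2_4e4 and none higher, against 5.40% and 7.59% of all tested genes. Their median log2 fold change was -0.67. The libraries of 14 did not overlap, against 7.04% of all tested genes. Mki67, the proliferation marker Ki-67, had 93.1, 131 and 167 CPM in Tfh2_4e4 and 191, 229, 218, 223 and 210.3 CPM in Tfh2_2e4, a log2 fold change of -0.69 (SE 0.14, adjusted p = 0.000374). Top2a, the topoisomerase that untangles chromosomes, had 399, 518 and 601 CPM in Tfh2_4e4 and 661, 729, 688, 784 and 735 CPM in Tfh2_2e4, a log2 fold change of -0.53 (SE 0.095, adjusted p = 5.99e-05). Both genes had no overlap between the groups. Birc5, a part of the chromosomal passenger complex, fell by 0.86, the cyclin genes Ccna2, Ccnb1 and Ccnb2 by 0.84, 0.68 and 0.67, and Cdk1, the kinase they bind, by 0.77. The kinase genes Aurka (-0.39) and Aurkb (-0.62) and the activator gene Cdc20 (-0.40) did not pass. Aurka passed without Tfh2_2e4 replicate 5 (-0.45, adjusted p 0.0446), Aurkb without Tfh2_4e4 replicate 4 (-0.98, adjusted p 0.00222), and Cdc20 with any 1 of Tfh2_4e4 replicates 2 and 3 left out (-0.48 to -0.50, adjusted p 0.0278 to 0.0466) and without both libraries that stood apart (-0.56, adjusted p 0.0261). The CHR element (TTTGAA, either strand), a motif of genes expressed in G2 and M phase, was in the window of 12 of 25 mitosis genes with an entry, of 10 of the 21 that fell and of 12.5% of the tested genes.

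Among 20 tested genes of the G1 phase, 1 was higher and 6 lower, against 7.59% and 5.40% of all tested genes. Without Tfh2_4e4 replicate 3, 2 were higher. The one that rose was Cdkn1a, the cyclin-dependent kinase inhibitor p21, with 280.3, 316 and 409.9 CPM in Tfh2_4e4 and 106, 183, 129.9, 200.2 and 226 CPM in Tfh2_2e4 and a log2 fold change of 0.97 (SE 0.13, adjusted p = 3.75e-07). The libraries did not overlap. Ccne1 and Ccne2 (cyclin E), Cdc25a (the phosphatase that frees their kinase), E2f2, E2f7 and E2f8 fell, with log2 fold changes of -0.39 for Cdc25a and -1.02 for E2f7. Ccne1 did not pass with any 1 of Tfh2_4e4 replicates 5 and 6 and Tfh2_2e4 replicate 6 left out (-0.48 to -0.52, adjusted p 0.0733 to 0.0852) nor without both libraries that stood apart (-0.59, adjusted p 0.0543), Ccne2 did not with any 1 of Tfh2_4e4 replicates 1, 2, 4 and 6 and Tfh2_2e4 replicates 1 and 6 left out (-0.40 to -0.54, adjusted p 0.0538 to 0.153), and E2f2 and E2f8 did not without Tfh2_2e4 replicate 1 (adjusted p 0.0591 and 0.075), where 3 members of the list were lower. Between Tfh2_2e4 and Tfh2_1e4, 4 replication genes and 11 mitosis genes were lower in Tfh2_2e4 (against 1.20% of all genes). Between Tfh2_6e4 and Tfh2_4e4, less than a doubling of the number, 9 and 1 were lower in Tfh2_6e4 (against 0.863%). No replication or mitosis gene passed a test of whether its step to 4e4 differed from its step to 2e4.

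**Figure D3:**
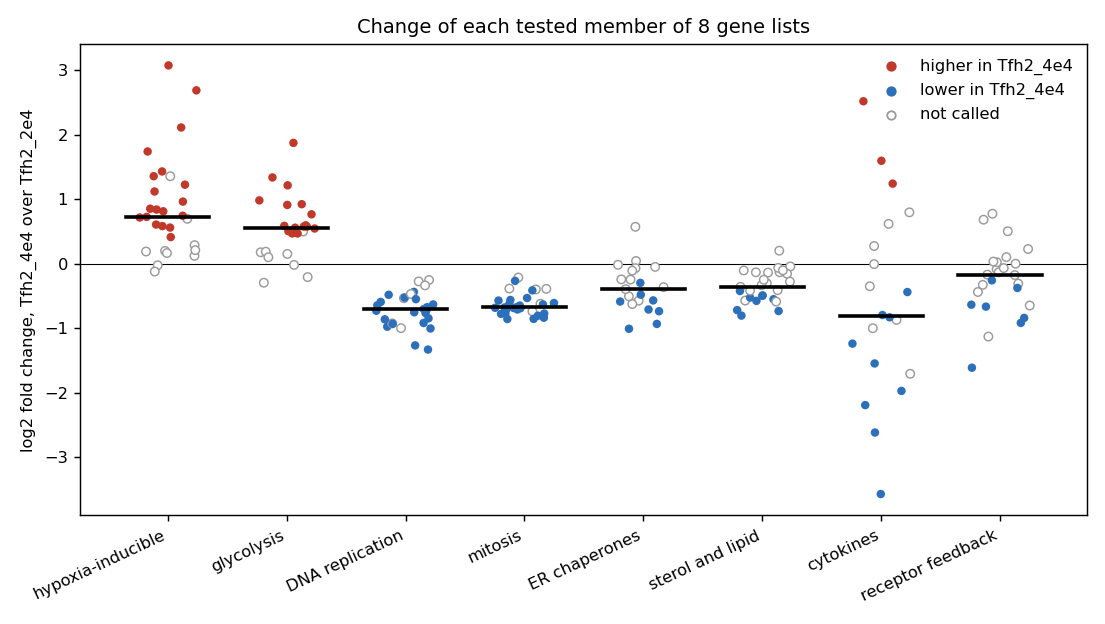
Log2 fold change (Tfh2_4e4 over Tfh2_2e4, y axis) of each tested member of 8 gene lists (x axis). Red and blue points were called higher and lower, open points were not called, and black bars are list medians. Hypoxia-inducible and glycolysis genes lie mostly above 0, with medians of 0.73 and 0.55, and replication and mitosis genes lie below it, with medians of -0.71 and -0.67.

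Genes near the T cell receptor signal moved in both directions. Of 27 tested early response and activation factors, 5 were higher and 5 lower, against 7.59% and 5.40% of all tested genes. Those that fell were Egr1, Egr2, Nfatc1, Tox and Batf. Egr2, of the same EGR family as Egr1, had 3.302, 5.92 and 8.295 CPM in Tfh2_4e4 and 21.6, 17.3, 11.7, 9.46 and 11.03 CPM in Tfh2_2e4, a log2 fold change of -1.27 (SE 0.24, adjusted p = 0.000147). Nfatc1, a calcium-dependent factor, had 30.1, 44.6 and 57.9 CPM in Tfh2_4e4 and 99.1, 73.7, 65.6, 62.1 and 79.9 CPM in Tfh2_2e4, a log2 fold change of -0.80 (SE 0.15, adjusted p = 0.000131). Tox, a factor of TFH and exhausted T cells, fell by 0.92. Batf, a partner of the AP-1 family, did not pass with any 1 of Tfh2_4e4 replicates 3 and 5 and Tfh2_2e4 replicate 1 left out (-0.41 to -0.46, adjusted p 0.0608 to 0.108), nor without both libraries that stood apart (-0.46, adjusted p 0.0753). Those that rose were Nfil3, Ier3, Fosl2, Ikzf2 and Irf4. Nfil3, a bZIP repressor, had 65.6, 83.7 and 99.9 CPM in Tfh2_4e4 and 26.7, 40.1, 26.03, 40.3 and 30.1 CPM in Tfh2_2e4, a log2 fold change of 1.34 (SE 0.12, adjusted p = 1.34e-10). Ier3, a survival gene of the immediate early response, rose by 1.38 and Fosl2, a member of the AP-1 family, by 0.94, both without overlap. Irf4, which sets the strength of the activation programme, rose by 0.28 and did not pass with any 1 of Tfh2_4e4 replicates 2, 4, 5 and 6 and Tfh2_2e4 replicates 1 and 6 left out (0.19 to 0.27, adjusted p 0.0572 to 0.212), nor without both libraries that stood apart (0.25, adjusted p 0.056).

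Of 25 tested inhibitors that feed back on the receptor signal, 7 were lower in Tfh2_4e4 and none higher. The shares of all tested genes were 5.40% and 7.59%. Their median log2 fold change was -0.18, and 1 was higher without Tfh2_4e4 replicate 1. Beside Rgs16 the 7 lower genes were Nfkbia, Dusp2, Dusp4, Ubash3b, Nfkbid and Rgs10. Nfkbia, the inhibitor of NF-kappa-B that NF-kappa-B itself induces, had 234, 312 and 322 CPM in Tfh2_4e4 and 474, 444, 428, 426 and 567 CPM in Tfh2_2e4, a log2 fold change of -0.66 (SE 0.10, adjusted p = 1.69e-06). Dusp2, a phosphatase of MAP kinases, had 40.8, 54.9 and 64.6 CPM in Tfh2_4e4 and 115, 66.5, 102, 70.96 and 116 CPM in Tfh2_2e4. Both genes had no overlap. Rgs10 did not pass with any 1 of Tfh2_4e4 replicates 4, 5 and 6 and Tfh2_2e4 replicate 1 left out (-0.22 to -0.27, adjusted p 0.0557 to 0.126) nor without both libraries that stood apart (-0.29, adjusted p 0.0511), Nfkbid did not without Tfh2_4e4 replicate 5 (-0.82, adjusted p 0.0543), and Ubash3b did not without Tfh2_2e4 replicate 1 (-0.33, adjusted p 0.0612). The inhibitory receptor gene Cd5 (-0.17) and Tnfaip3, which encodes A20 (0.033), were not called.

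Receptors on the surface shifted too. Of 18 tested costimulatory receptors and ligands, 5 were higher and 1 lower, with 2 lower without Tfh2_2e4 replicate 5 and 3 lower without Tfh2_4e4 replicate 3. Tnfrsf9 (4-1BB) had 121, 235 and 255 CPM in Tfh2_4e4 and 27.7, 52.7, 59.4, 94.8 and 76.96 CPM in Tfh2_2e4, a log2 fold change of 1.79 (SE 0.19, adjusted p = 2.36e-09). Tnfrsf18 (GITR) had 209.5, 286 and 325 CPM in Tfh2_4e4 and 97.4, 128, 126, 146 and 159.8 CPM in Tfh2_2e4, a log2 fold change of 1.07 (SE 0.11, adjusted p = 2.81e-09). Slamf7 and Tnfrsf4 (OX40) rose by 1.86 and 0.60, and none of the 4 overlapped. Icos rose by 0.47 with an adjusted p of 0.0408, and it did not pass with any 1 of Tfh2_4e4 replicates 1, 3 and 6 and Tfh2_2e4 replicates 1, 4 and 5 left out (0.34 to 0.48, adjusted p 0.0564 to 0.187), nor without both libraries that stood apart (0.44, adjusted p 0.0737). Cd40lg, the helper ligand of TFH cells, fell by 0.68. Of 12 tested coinhibitory genes 3 were lower and 1 higher, and 5 were lower without Tfh2_4e4 replicate 3. For both lists the shares over all tested genes were 5.40% lower and 7.59% higher. Beside Pdcd1, Pdcd1lg2 (a PD-1 ligand) and Cd96 fell by 1.85 and 1.097, Vsir (VISTA) rose by 0.68, and Ctla4 had 139, 154 and 289 CPM in Tfh2_4e4 and 137, 146, 204, 187 and 221 CPM in Tfh2_2e4 with a log2 fold change of -0.018 (SE 0.16, adjusted p = 0.964).

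Among 20 tested cytokine genes 9 were lower and 3 higher, against 5.40% and 7.59% of all tested genes, with a median log2 fold change of -0.81. Without the 2 libraries that stood apart, 5 were lower and 3 higher, and the median was -0.44. Tnf, an early inflammatory cytokine, had 9.54, 11.8 and 15.5 CPM in Tfh2_4e4 and 35.8, 33.97, 24.5, 23.5 and 25.5 CPM in Tfh2_2e4, a log2 fold change of -1.24 (SE 0.17, adjusted p = 6.91e-07) with no overlap. Il17a, the TH17 cytokine, had 36.6, 65.1 and 133 CPM in Tfh2_4e4 and 152, 92.3, 146, 84.96 and 163 CPM in Tfh2_2e4. Its log2 fold change of -0.80 (SE 0.21, adjusted p = 0.00827) was -0.58 (adjusted p 0.0794) without the 2 libraries. Ccl20, the ligand of CCR6, ranged over 1.21, 2.603 and 13.7 CPM in Tfh2_4e4 and had 17.9, 3.46, 28.7, 8.89 and 52.3 CPM in Tfh2_2e4. Its fall of 2.19 was -1.43 without them, with an adjusted p of 0.107, and it did not pass without Tfh2_2e4 replicate 6 (-1.61, adjusted p 0.0559). Il2 and Xcl1 passed as lower on 5 summed counts each in Tfh2_4e4, against 33 for Il2 and 64 for Xcl1 in Tfh2_2e4. Il2 did not pass with any 1 of Tfh2_4e4 replicates 2, 4, 5 and 6 and Tfh2_2e4 replicates 1, 4 and 6 left out (-2.09 to -2.65, adjusted p 0.0567 to 0.172), and neither passed without both libraries that stood apart (adjusted p 0.142 for Il2 and 0.0644 for Xcl1).

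The cytokine genes that rose were Il10, Tgfb3 and Il24. Il10, which restrains inflammation, had 23.6, 47.7 and 63.1 CPM in Tfh2_4e4 and 15.96, 16.3, 21.7, 23.3 and 16.7 CPM in Tfh2_2e4, a log2 fold change of 1.24 (SE 0.18, adjusted p = 2.19e-06). All Tfh2_4e4 libraries lay above all Tfh2_2e4 libraries, and Il10 averaged 18.7 CPM in Tfh2_1e4. Tgfb3, a TGF-beta isoform, had 12.7, 24.1 and 31.6 CPM in Tfh2_4e4 and 3.16, 7.82, 9.01, 14.4 and 4.82 CPM in Tfh2_2e4, with overlap and a log2 fold change of 1.59 (SE 0.26, adjusted p = 1.43e-05).

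Among 26 tested genes of the TFH programme, 7 were lower and 4 higher, against 5.40% and 7.59% of all tested genes. The falls were Angptl2, Pdcd1, Tox, Cd40lg, Il21, Pou2af1 (a B cell coactivator that TFH cells also express) and Batf. Il21, the main helper cytokine, had 54.5, 74.5 and 96.8 CPM in Tfh2_4e4 and 89.4, 92.4, 113, 96.9 and 119 CPM in Tfh2_2e4, with overlap and a log2 fold change of -0.44 (SE 0.12, adjusted p = 0.00829). Cxcr5, the receptor for entry into follicles, had 6.69, 8.03 and 10.6 CPM in Tfh2_4e4 and 14.2, 7.82, 11.4, 7.38 and 8.53 CPM in Tfh2_2e4 and did not pass, with a log2 fold change of -0.26 (SE 0.27, adjusted p = 0.624). Ascl2, a TFH transcription factor, had 48 counts in Tfh2_4e4 and 0 in Tfh2_2e4, at least 11.7-fold higher when 3 counts over the group are set for the 0. The median of the list was -0.24, and it stays there with Ascl2 at this bound. Only 1 TFH gene was higher without Tfh2_2e4 replicate 1, and 2 were without Tfh2_4e4 replicate 3, 4 or 6. Pou2af1 did not pass without Tfh2_2e4 replicate 1 (-0.54, adjusted p 0.0595). Without the 2 libraries that stood apart, 5 TFH genes were lower and 1 higher, and Il21 was -0.37 (adjusted p 0.0603).

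Among the lineage factors, Maf and Tbx21 were not called. Maf, which encodes c-Maf, had 477, 604 and 775 CPM in Tfh2_4e4 and 799, 655, 809, 694 and 627 CPM in Tfh2_2e4, with a log2 fold change of -0.19 (SE 0.11, adjusted p = 0.275). Its range overlapped between the groups. Bcl6, Prdm1, Foxp3 and Ifng were too low to be tested, with 21, 33, 10 and 1 summed counts in Tfh2_4e4 and 27, 8, 7 and 5 in Tfh2_2e4, and Il4 had 0 in both. Tbx21, the TH1 factor, was highest in the 2 libraries that stood apart (4.22 CPM in Tfh2_4e4 replicate 3 and 4.45 CPM in Tfh2_2e4 replicate 6). It was not called, and passed as lower without Tfh2_4e4 replicate 3 (-2.63, adjusted p 0.0138), an omission that keeps the high Tfh2_2e4 replicate 6. Without both libraries it was not called (-1.25, adjusted p 0.385). Its log2 fold change ranged from -2.63 to 0.76 with single libraries left out.

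Of 17 tested TH17 genes 2 were higher and 5 lower, against 7.59% and 5.40% of all tested genes. Without the 2 libraries that stood apart 2 were higher and 2 lower. Without Tfh2_4e4 replicate 3 alone, 4 were higher. Stat3, which carries the IL-6 and IL-21 signals, had 845, 1139 and 1350.0 CPM in Tfh2_4e4 and 617, 646, 823, 919 and 904 CPM in Tfh2_2e4, with overlap and a log2 fold change of 0.55 (SE 0.12, adjusted p = 0.00089). Ccr6, a homing receptor of TH17 cells, fell by 0.73. Of 14 tested genes of the STAT3 response 5 were higher and 1 lower, and those higher were Il4ra, Il21r and Il10ra, which encode cytokine receptor chains, Stat3 itself and the kinase gene Pim1. Pim1 did not pass without Tfh2_2e4 replicate 4 (0.29, adjusted p 0.0611), and the 1 lower, Batf, lost its call under the omissions given above. Il4ra had 330.0, 388 and 474 CPM in Tfh2_4e4 and 171, 244, 215, 258 and 267 CPM in Tfh2_2e4, a log2 fold change of 0.77 (SE 0.11, adjusted p = 1.78e-06), and Il21r rose by 0.63, both without overlap. Of 15 tested TH1 and TH2 genes 4 were higher and none lower, against 7.59% and 5.40% of all tested genes. Without Tfh2_4e4 replicate 3, 2 were lower. Runx3, a factor of TH1 and cytotoxic cells, had 369, 416 and 484 CPM in Tfh2_4e4 and 206, 293, 219, 260.2 and 193 CPM in Tfh2_2e4, a log2 fold change of 0.84 (SE 0.10, adjusted p = 5.48e-08). The other 3 (Il12rb2, Ccr4 and Crlf2) had overlapping libraries. Ccr4 did not pass with any 1 of Tfh2_4e4 replicate 5 and Tfh2_2e4 replicate 6 left out (0.52 to 0.59, adjusted p 0.063 to 0.0755), and Crlf2 did not with any 1 of Tfh2_4e4 replicates 1, 2, 3 and 4 and Tfh2_2e4 replicates 1, 4, 5 and 6 left out (0.36 to 0.44, adjusted p 0.0624 to 0.118). Without Tfh2_2e4 replicate 6, as without both libraries that stood apart, 2 of the list were higher.

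Of 13 tested genes of regulatory T cells 6 were higher and 1 lower, against 7.59% and 5.40% of all tested genes. Foxp3 itself had a few counts in either group. Those higher were Tnfrsf18, Lrrc32, Il10, Ikzf2, Il2ra and Izumo1r (folate receptor 4). Il2ra (CD25), a receptor chain for IL-2 that activated T cells also carry, had 1675, 1798 and 2238 CPM in Tfh2_4e4 and 1206, 1558, 1481, 1569.6 and 1068 CPM in Tfh2_2e4, a log2 fold change of 0.45 (SE 0.093, adjusted p = 0.000521). Nt5e, the ectoenzyme CD73 that makes adenosine, fell by 0.47. Genes of resting T cells and of homing moved mainly upward, with 6 of 20 and 6 of 18 tested higher and 1 lower in each. The shares of all tested genes were 7.59% higher and 5.40% lower. Without both libraries that stood apart, 6 of 21 and 4 of 18 were higher, and 0 and 2 were lower. The lower counts were likewise 0 and 2 in 6 and 4 of the 11 omissions of a single library. Il7r, the survival receptor of resting T cells, had 220.1, 261 and 333 CPM in Tfh2_4e4 and 109.5, 129, 162, 189 and 96.99 CPM in Tfh2_2e4, a log2 fold change of 0.97 (SE 0.14, adjusted p = 2.2e-06). Its groups did not overlap. Foxo1, a transcription factor that drives Il7r, rose by 0.38, Ccr7 by 0.52 and Itgb7, the gut-homing integrin chain, by 0.63.

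Some genes that fold proteins in the endoplasmic reticulum (ER) fell. Of 21 tested ER chaperones and quality control genes, 8 were lower in Tfh2_4e4, none was higher and 13 did not pass. Over all tested genes 5.40% were lower and 7.59% higher. The median log2 fold change of the list was -0.39. Without Tfh2_2e4 replicate 2 or 5, 1 was higher. Hspa5, the chaperone BiP (chr2:34772090-34776529), had 239, 284 and 317 CPM in Tfh2_4e4 and 479, 448, 431, 435 and 484 CPM in Tfh2_2e4. Its log2 fold change was -0.71 (SE 0.082, adjusted p = 1.75e-08) and the groups did not overlap. Hsp90b1 (the chaperone GRP94), Pdia6 (a disulfide isomerase) and Dnajb11 (a partner of BiP) fell by 0.48, 0.59 and 0.74. Hsp90b1 was -0.38 without both libraries that stood apart (adjusted p 0.0501). Manf and Creld2, secreted proteins induced by ER stress, fell by 0.93 and 1.01. Xbp1 (-0.11), Canx (-0.017) and Pdia4 (-0.07) did not pass. Between Tfh2_2e4 and Tfh2_1e4 no member of this list passed in either direction. Of 12 tested heat shock genes 3 were lower, Hsph1 (-0.63), Dnaja1 (-0.59) and Hspd1 (-0.37), and Hspd1 did not pass with any 1 of Tfh2_4e4 replicates 1 and 2 and Tfh2_2e4 replicate 6 left out (-0.30 to -0.34, adjusted p 0.0504 to 0.1).

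The ER stress element, CCAAT and CCACG with 9 bases between them on either strand, was in the 250-base window of 9 of 19 genes of this list with an entry, of 4 of the 7 that fell, and of 0.158% of the tested genes. The windows of the called members with a match and the largest changes are shown with the element in capitals, for Creld2 at chr15:88819396-88819645 and for Hspa5 at chr2:34771840-34772089, both on the + strand of GRCm38.p6, from RefSeq.
Creld2: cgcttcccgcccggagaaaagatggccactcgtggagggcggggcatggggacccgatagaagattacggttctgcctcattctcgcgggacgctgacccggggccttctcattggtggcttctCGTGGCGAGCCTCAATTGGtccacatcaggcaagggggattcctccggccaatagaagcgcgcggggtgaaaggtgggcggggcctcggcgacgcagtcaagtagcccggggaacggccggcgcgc
Hspa5: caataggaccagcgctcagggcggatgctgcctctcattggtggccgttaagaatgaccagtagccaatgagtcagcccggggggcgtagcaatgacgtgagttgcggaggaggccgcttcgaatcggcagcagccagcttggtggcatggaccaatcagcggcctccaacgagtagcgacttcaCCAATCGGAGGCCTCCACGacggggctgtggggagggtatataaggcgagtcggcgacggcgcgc
The element begins at position -126 in Creld2, where it is read on the opposite strand, and at position -65 in Hspa5.

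Sterol synthesis fell in part. Of 27 tested genes of sterol and fatty acid synthesis, 9 were lower in Tfh2_4e4 and none higher, with a median log2 fold change of -0.36. Over all tested genes 5.40% were lower and 7.59% higher. Among the 9 were Hmgcs1, Fdps, Sqle, Cyp51, Msmo1, Nsdhl and Sc5d, all enzymes of cholesterol synthesis. Hmgcs1, which opens the pathway, had 113, 121 and 162 CPM in Tfh2_4e4 and 175, 194, 199, 224 and 245 CPM in Tfh2_2e4, a log2 fold change of -0.72 (SE 0.11, adjusted p = 3.87e-06) with no overlap. Cyp51, the lanosterol demethylase, had 69.5, 93.4 and 111 CPM in Tfh2_4e4 and 149, 165, 152, 154 and 158 CPM in Tfh2_2e4, a log2 fold change of -0.73 (SE 0.11, adjusted p = 2.07e-06). Sqle did not pass without Tfh2_2e4 replicate 4 (-0.34, adjusted p 0.0711). The fatty acid genes Acaca (-0.30), Acly (-0.042), Fasn (-0.14) and Scd1 (-0.42) did not pass. Of these, Acaca and Scd1 passed as lower without both libraries that stood apart (-0.47 and -0.63), Acaca without Tfh2_4e4 replicate 3 (-0.44, adjusted p 0.037) and Scd1 with any 1 of Tfh2_4e4 replicates 1 and 3 and Tfh2_2e4 replicates 1 and 6 left out (-0.47 to -0.57, adjusted p 0.00585 to 0.041). Between Tfh2_2e4 and Tfh2_1e4 no member of the list passed. Without the 2 libraries that stood apart 11 were lower and none higher.

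A sterol element (TCACNCCAC, both strands) was found in the window of Hmgcs1 alone among the 18 listed genes with an entry, 5 of which fell, and in 1.16% of the tested genes. Hmgcs1 is shown for that reason (chr13:119690101-119690350, + strand), with the element in capitals from position -137.
Hmgcs1: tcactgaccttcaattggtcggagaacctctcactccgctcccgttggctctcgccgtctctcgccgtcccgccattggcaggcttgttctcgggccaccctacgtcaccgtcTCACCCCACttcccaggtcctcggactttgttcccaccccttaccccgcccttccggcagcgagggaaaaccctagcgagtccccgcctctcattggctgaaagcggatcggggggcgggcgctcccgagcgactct

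Targets of ATF4, the factor of the amino acid response, split. Of 25 tested, 6 were lower and 3 higher in Tfh2_4e4, against 5.40% and 7.59% of all tested genes. The falls were in serine and one-carbon metabolism and related enzymes: Phgdh, Psat1, Shmt2, Mthfd2 and Asns, with the transporter gene Slc1a4. Phgdh, the first enzyme of serine synthesis, had 3.87, 5.67 and 8.09 CPM in Tfh2_4e4 and 17.2, 10.9, 12.7, 6.24 and 16.8 CPM in Tfh2_2e4, with overlap and a log2 fold change of -1.11 (SE 0.23, adjusted p = 0.000664). Asns did not pass without Tfh2_2e4 replicate 1 (-0.72, adjusted p 0.0655), and Psat1 did not with any 1 of Tfh2_4e4 replicates 2, 4, 5 and 6 and Tfh2_2e4 replicates 1, 2 and 6 left out (-0.34 to -0.43, adjusted p 0.0526 to 0.128). Mthfd1l, a mitochondrial enzyme of the same one-carbon chemistry, rose by 0.81 without overlap, and the other rises, Ddit4 and Vldlr, are also on the hypoxia list. Ddit4, which restrains mTORC1, had 966, 1161 and 1213 CPM in Tfh2_4e4 and 635, 723, 861, 891 and 598 CPM in Tfh2_2e4. The cyclic AMP response element (TGACGTCA, the same on both strands) was searched for in the windows of this list. It was found in 0 of 24 genes with an entry, against 3.19% of the tested genes. Other forms of site were not searched, so this count does not show whether these genes hold sites of ATF4.

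In other large groups the share called was 3.45% (oxidative phosphorylation), 5.88% (citric acid cycle), 9.68% (proteasome) and 16% (ribosome biogenesis), against 13.0% of all tested genes. Of 29 tested nuclear genes of oxidative phosphorylation 1 was lower, of 17 genes of the citric acid cycle 1, of 31 proteasome genes 3, and none of these was higher, against 5.40% lower over all tested genes. Their median log2 fold changes were -0.056, -0.13 and -0.18. Of 25 ribosome biogenesis genes 3 were lower and 1 higher, and of 8 mitochondrial mRNAs none passed. Without the 2 libraries that stood apart, 7 proteasome genes and 2 of oxidative phosphorylation were lower, 1 mitochondrial mRNA was higher, and no ribosome biogenesis gene was higher. Without Tfh2_4e4 replicate 3 or replicate 4, 6 proteasome genes were lower. With single libraries left out, 1 to 3 genes of oxidative phosphorylation and 1 to 2 of the citric acid cycle were lower, 0 to 1 mitochondrial mRNA was higher, and 0 to 1 ribosome biogenesis gene was higher (0 in 8 of 11 omissions). The share of mitochondrial rRNA among counts outside the 2 unnamed identifiers averaged 9.92% in Tfh2_4e4 (SD 0.989, n = 6) and 9.38% in Tfh2_2e4 (SD 0.685, n = 5), a difference of 0.540 points (exact permutation p = 0.312 over 462 arrangements). Without Tfh2_4e4 replicate 2 it was 0.911 points (exact permutation p = 0.0159).

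**Figure D4:**
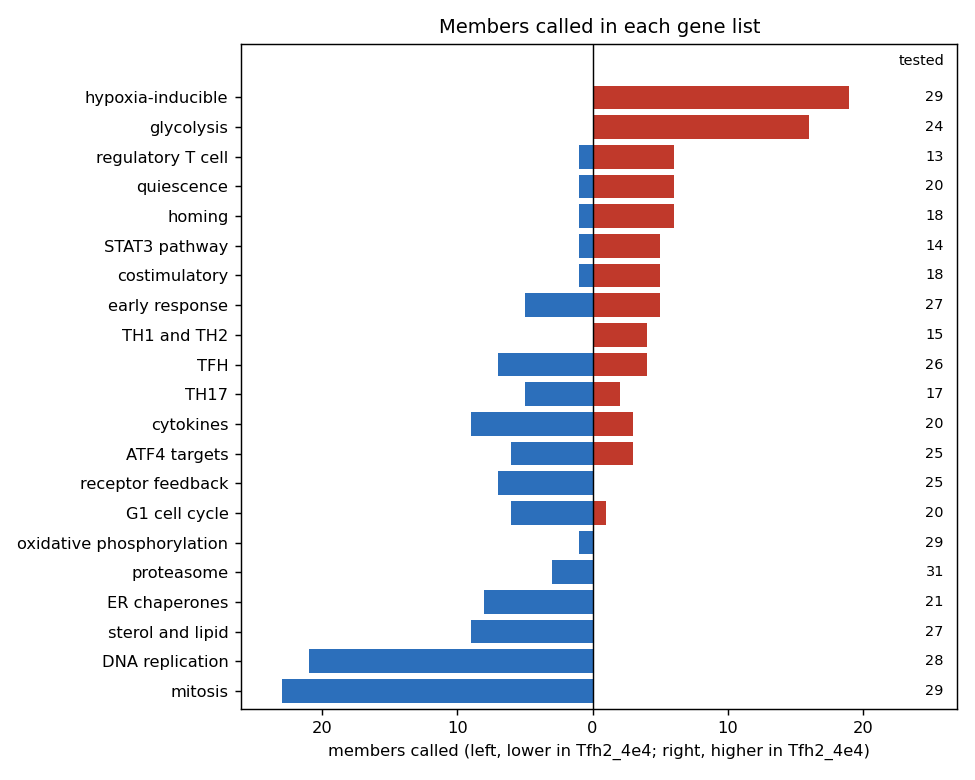
Number of members called lower (blue, left) and higher (red, right) in Tfh2_4e4 than in Tfh2_2e4 for 21 gene lists, with the number tested at the right edge. Hypoxia-inducible genes (19 higher of 29) and glycolysis genes (16 of 24) stand at one end and replication (21 lower of 28) and mitosis genes (23 of 29) at the other.

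Markers of other cell types were looked at beside these groups. Of the 15 genes on the list of macrophages, granulocytes and dendritic cells 3 were tested, and H2-Ab1, a chain of MHC class II, passed with 60.5, 75.6 and 82.7 CPM in Tfh2_4e4 and 16.6, 25.3, 25.05, 42.4 and 33.8 CPM in Tfh2_2e4 (log2 fold change 1.38). The list summed to 64.7, 80.4 and 87.9 CPM in Tfh2_4e4 and 24.4, 36.2 and 50.1 CPM in Tfh2_2e4 (lowest, median and highest). Its partner chain H2-Aa had 0 counts in all 11 libraries, and Cd74, the class II chaperone, averaged 0.188 CPM in Tfh2_4e4 and 0.499 CPM in Tfh2_2e4. On the B cell list Ighm was lower (-0.77), with 5.36, 9.06 and 11.6 CPM in Tfh2_4e4 and 16.9, 11.02, 15.8, 5.68 and 23.9 CPM in Tfh2_2e4, and did not pass with any 1 of Tfh2_4e4 replicates 1 and 2 and Tfh2_2e4 replicates 1 and 6 left out (-0.54 to -0.73, adjusted p 0.0615 to 0.175), nor without both libraries that stood apart (-0.64). The B cell list summed to 5.36, 9.99 and 14.8 CPM in Tfh2_4e4 and 6.05, 17.03 and 27.9 CPM in Tfh2_2e4. The NK cell list summed to 1.32, 2.16 and 3.17 CPM in Tfh2_4e4 and 0.550, 0.769 and 1.95 CPM in Tfh2_2e4, with overlap, and its 1 tested member, the lectin-like receptor gene Klre1, did not pass (log2 fold change 1.25, adjusted p = 0.176). The list of CD8 and gamma-delta T cells summed to 8.09, 12.99 and 20.1 CPM in Tfh2_4e4 and 7.57, 11.8 and 14.2 CPM in Tfh2_2e4, and neither of its 2 tested members passed. The part of these cells in the results above was not tested.

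A set of 12 genes (0.106% of 11357) changed by a different amount between 2e4 and 4e4 than between 1e4 and 2e4, as tested by the difference of the 2 log2 fold changes, which share the Tfh2_2e4 libraries. Egr1 gave the smallest adjusted p. It averaged 65.4, 83.2, 33.05 and 22.3 CPM from 1e4 to 6e4, so that it was highest at 2e4 and lowest at 6e4. Its step to 4e4 minus its step to 2e4 was -1.68 (SE 0.22, adjusted p = 1.35e-05). Il21 was likewise highest at 2e4 and lowest at 6e4, with 69.2, 102, 75.3 and 62.2 CPM and a difference of -1.0004 (SE 0.20, adjusted p = 0.0306). Sla, an adaptor that lowers receptor signalling, had 30.9, 52.97, 39.6 and 37.1 CPM and a difference of -1.202 (SE 0.22, adjusted p = 0.0102). Phf11b, which has close paralogs, had 14.8, 26.6, 13.8 and 8.91 CPM and a difference of -1.804 (SE 0.33, adjusted p = 0.0102). These 4 genes had their highest mean at 2e4, as had Myb, a transcription factor, with a difference of -1.02 (SE 0.22, adjusted p = 0.0383).

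Hspa5, Timp1, Ctla2a and B3gnt8 were not called between 1e4 and 2e4 and then moved. Hspa5 averaged 475, 455, 279 and 251 CPM, and its difference of steps was -0.65 (SE 0.14, adjusted p = 0.0383). Timp1, an inhibitor of metalloproteases, averaged 195, 203, 436 and 527 CPM, a difference of 1.04 (SE 0.22, adjusted p = 0.0367). Ctla2a, a protease inhibitor with a close paralog (Ctla2b), averaged 555, 653, 1640.0 and 2491 CPM, a difference of 1.097 (SE 0.23, adjusted p = 0.0367), and its step from 4e4 to 6e4 was called as well (0.60, adjusted p = 0.00505). B3gnt8, a glycosyltransferase, gave 1.18 (SE 0.25, adjusted p = 0.0367). Itpr3, a calcium channel of the ER, was lowest at 2e4 with 73.4, 47.4, 65.5 and 69.9 CPM and a difference of 1.103 (SE 0.21, adjusted p = 0.0102), and its fall between 1e4 and 2e4 was itself called (-0.63, adjusted p = 0.000175). Ms4a6b rose between 1e4 and 2e4 and was not called between 2e4 and 4e4, a difference of -1.32 (SE 0.29, adjusted p = 0.0383), and Fermt1, lower at 2e4 than at 1e4 (-3.97, adjusted p = 0.000122), was counted at few reads (0.204 CPM at 2e4).

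With each single library of Tfh2_4e4 or Tfh2_2e4 left out, Egr1 passed, and each of the other 11 genes did not pass without at least 1 of them. The Tfh2_1e4 libraries, which also enter this difference, were not left out in this way. Of the 11 omissions of a single library, Hspa5 did not pass in 9, Myb in 8 and Fermt1 in 7. Ctla2a and Timp1 did not pass in 6 each, and B3gnt8 and Ms4a6b in 4 each. Sla did not pass without Tfh2_2e4 replicate 4 (adjusted p 0.0921), Phf11b and Itpr3 without Tfh2_2e4 replicate 6 (0.053 and 0.165), and Il21 without either (0.0947 and 0.205). The number of genes called was 4 without either of these libraries, 5, 7 and 6 without Tfh2_4e4 replicates 2, 4 and 5, and 40 without Tfh2_4e4 replicate 3. Without Tfh2_4e4 replicate 3 and Tfh2_2e4 replicate 6, 6 genes passed, and Egr1 (-1.49), Phf11b (-1.83) and Sla (-1.32) were the 3 shared with the 12, while Il21 was -0.86 (adjusted p 0.211) and Hspa5 -0.66 (0.12). Set against the step from 4e4 to 6e4 per doubling of the number, no gene passed an adjusted p of 0.05 with edgeR. Of 11357 genes 564 had an unadjusted p under 0.05, where chance alone gives about 1 in 20. DESeq2 called 1 gene and limma-voom 0.

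**Figure D5:**
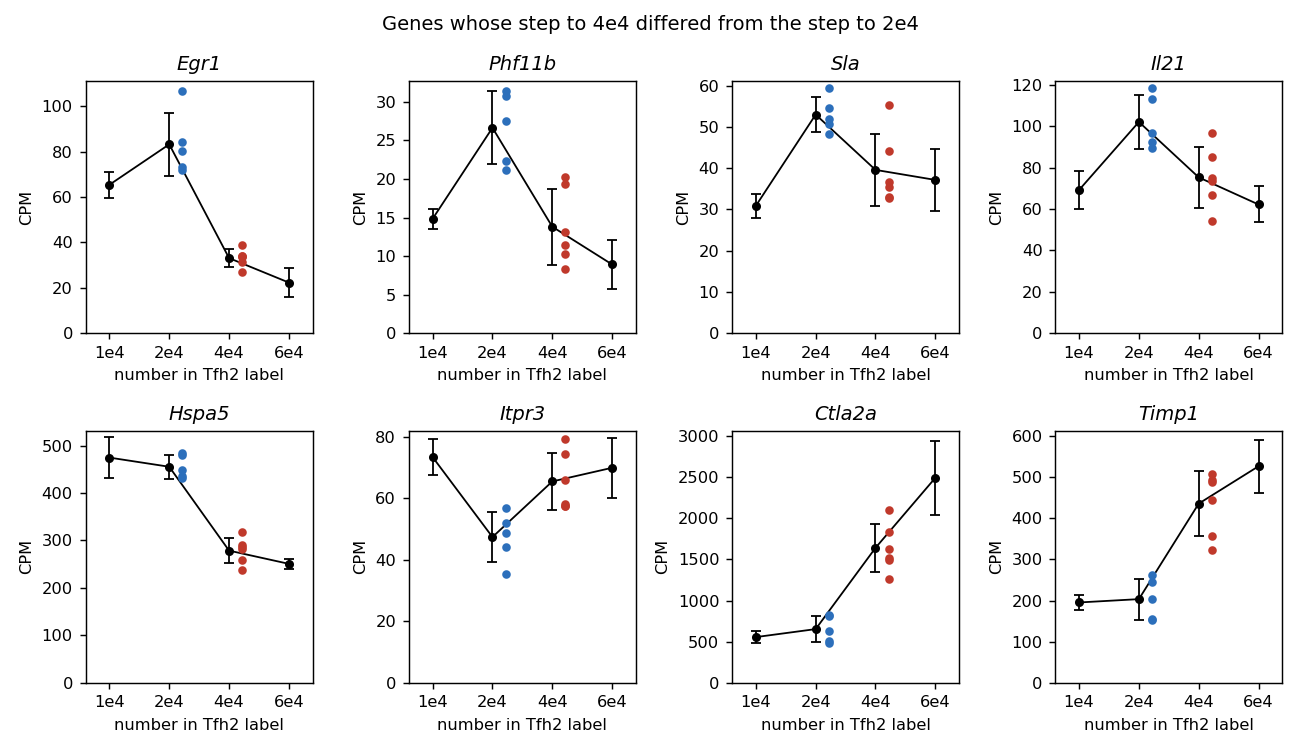
CPM (y axis, from 0) of 8 of the 12 genes whose step to 4e4 differed from their step to 2e4, by the number in the Tfh2 label (x axis). Black points and bars are means and SD (n = 6, 5, 6 and 6), and coloured points are single libraries of Tfh2_2e4 (blue) and Tfh2_4e4 (red). Egr1, Phf11b, Sla and Il21 peak at 2e4, Itpr3 dips there, Hspa5 and Timp1 change mainly between 2e4 and 4e4, and Ctla2a rises there and again at 6e4.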

How the data were processed

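RNA from 34 sorted T cell samples was sequenced as 3′-end libraries, in which a count does not scale with transcript length. The deposited values are raw read counts per gene identifier. Per the submitters' processing notes the authors used STAR 2.7.2b, featureCounts 1.6.4 and the mm10 build, and settings for strand and for reads that fit several places are not given in the sources used here. Of 27179 identifiers, 25275 matched a gene of the RefSeq annotation of GRCm38.p6, and the other 1904, named by identifier only, held 48.8% of counts. Total counts were 6548499 to 9934245 in Tfh2_4e4 and 5453857 to 9003008 in Tfh2_2e4, and no pair of libraries was identical (at least 12847 identifiers differed).

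Counts were fitted in R 4.3.3 with the quasi-likelihood F-test of edgeR 4.0.16 (TMM factors, filterByExpr by group, all 34 libraries in 6 groups) and p-values were adjusted by the Benjamini-Hochberg method over all 11357 genes tested at 0.05. Fold changes have Tfh2_4e4 on top, and CPM uses TMM-scaled totals. Differences between successive steps were contrasts of the same fit. DESeq2 1.42.0, limma-voom (limma 3.58.1), other scalings and filters, a replicate block and leaving out libraries were alternatives, and scripts were tested on simulated counts. Genes named were 5 markers, lineage genes, the 10 largest rises and falls among genes whose log2 CPM averaged 3 or more and whose libraries all moved one way, up to 4 called members per list with the smallest adjusted p and the 6 clearest differences between steps, and 78 more list members were named after their values were seen. A few of these genes are not reported here. The comparison, the members and all gene lists were chosen with earlier results of these data known. Replicate numbers were not taken as pairs, since same-numbered deviations correlated over 0.1 in 2 of 5 pairs (mean r 0.0586). Libraries of differing number within the ranges 1 to 3 or 4 to 6 had a mean r of 0.051. Those of different ranges had -0.053, with 0 of 15 pairs over 0.1. With that range as a factor 1797 genes were called. The main fit has no such factor, and the labels do not say what the ranges stand for.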

Additional observations from a re-analysis of the deposited data

Results flagged for a closer look

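Of 440 groups of libraries checked gene by gene, 40 held a library that lay far from its nearest neighbour relative to the group's range. A rate of 1 in 20 would give 22 of 440. Genes can vary together and some, such as Ifng, had few counts, so 22 is only a rough guide. Each value that follows is the CPM of the library that stood apart. Tfh2_4e4 replicate 1 was above the rest of its group with 169.6 for Pgm1. Tfh2_4e4 replicate 3 was above the rest of its group with 4.22 for Tbx21, 36.1 for Fam111a, 304 for Tnfrsf4, 30.0 for Lta, 162 for Hmgcs1, 114 for Mthfd2, 20.4 for Zbtb32 and 2.46 for Ccl3. Tfh2_4e4 replicate 4 was above the rest of its group with 20.9 for Aurkb, 0.792 for Cd74, 289 for Ctla4, 36.2 for Higd1a and 16.9 for Pgk1. Tfh2_4e4 replicate 4 was below the rest of its group with 18.1 for Ccnb1, 157 for Hk1 and 219 for Slc16a3. Tfh2_4e4 replicate 5 was above the rest of its group with 0.161 for Ifng, 42.1 for Dpf1, 21.8 for Nsdhl and 24.2 for Adm. Tfh2_2e4 replicate 1 was above the rest of its group with 99.6 for Angptl2, 10.2 for Pdcd1lg2, 37.1 for Ndufa4 and 44.2 for Batf. Tfh2_2e4 replicate 2 was above the rest of its group with 7.44 for Il24 and 0.641 for Ifng. Tfh2_2e4 replicate 4 was above the rest of its group with 13.8 for Ikzf2. Tfh2_2e4 replicate 5 was above the rest of its group with 0.568 for Prdm1, 9.84 for Itga7, 32.4 for Acaca and 2.08 for Cd74. Tfh2_2e4 replicate 6 was above the rest of its group with 4.45 for Tbx21, 0.556 for Foxp3, 34.1 for Tagap, 22.3 for Aurkb and 24.9 for Pgk1. Tfh2_2e4 replicate 6 was below the rest of its group with 192 for Mcm7 and 17.4 for Rrm2. The mitochondrial rRNA share of Tfh2_4e4 replicate 2 was 8.06%, the lowest of its group.

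For 12 genes the step from 2e4 to 4e4 differed from the step from 1e4 to 2e4 by the test of that difference (edgeR, adjusted p under 0.05). On the log2 scale the first minus the second was -1.804 for Phf11b, -1.68 for Egr1, -1.32 for Ms4a6b, -1.20 for Sla, -1.02 for Myb, -1.0004 for Il21, -0.65 for Hspa5, 1.04 for Timp1, 1.10 for Ctla2a, 1.10 for Itpr3, 1.18 for B3gnt8 and 6.24 for Fermt1.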

How the results depend on the processing

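The number of called genes ranged over 1065 (fitted on the 2 groups alone) to 1902 (replicate block, 1067 higher and 835 lower). It ranged over 1140 to 1502 when single libraries of Tfh2_4e4 or Tfh2_2e4 were left out. DESeq2 called 1702, limma-voom 1629, RLE and upper quartile factors 1480 and 1488, no filter 1384 and a mean of at least 5 CPM 1475. No scaling moved the median of all genes by over 0.1. The 12 genes whose successive steps differed were 33 with no filter, 32 with DESeq2, 44 with a replicate block, 23 with the range of replicate numbers as a factor, 1 with Tfh2 libraries only and 6 without both libraries that stood apart. The count was 4 to 40 with single libraries of Tfh2_4e4 or Tfh2_2e4 left out. It was 4 without Tfh2_2e4 replicate 4 or 6, and 40 without Tfh2_4e4 replicate 3. The Tfh2_1e4 libraries were not left out. The cause was not tested. Against the step to 6e4 the 0 called genes were 4 with no filter and 1 with DESeq2. The difference in mitochondrial rRNA share was 0.261 to 0.911 points with single libraries left out, the highest without Tfh2_4e4 replicate 2, and 0.498 with the replicate block (exact permutation p = 0.5). Of 212 named genes tested, 158 kept their direction and their side of the threshold under all alternatives, and over 5070 pairs of a gene and an alternative a call was lost in 196, gained in 40 and turned in 0. Same-numbered libraries were not shown to be pairs, so a call changed by the block is not read as a change in effect.

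Depth limited genes with few counts (Il2, Xcl1, Ascl2, Slc2a1, Fermt1, Bcl6, Prdm1, Foxp3), and a difference there can go undetected. The floor set for Ascl2 covers counting error only, while the SEs come from the edgeR fit and include the spread between libraries. The labels do not say what the number after Tfh2 counts, so levels are ordered by it without a unit. Genes with close copies (Ly6c1, Ctla2a, Phf11b, Pgam1, Gapdh, Eno1, Pgk1) and antisense neighbours are uncertain for shared reads.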
